A study of Mus musculus with 6 samples.

Results

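The miR-26 arms miR-26a-5p, miR-26b-5p and miR-26b-3p were compared between brown and subcutaneous adipose tissue of mice. They are 3 of the 1251 miRNA arms in the deposited table and were taken by name. The labels put 3 libraries in the group BF-EPA, from the interscapular brown depot, and 3 in SUB-EPA, from the inguinal subcutaneous depot, a white fat. All 6 came from C57BL/6J mice that entered the study at 5 to 6 weeks of age. For 11 weeks the mice ate a high-fat diet in which fat gave 45% of the energy, protein 20% and carbohydrate 35%, and which the design text describes as carrying 6.75% eicosapentaenoic acid (EPA), an omega-3 fatty acid. Mice were fasted for 4 hours before the tissues were taken. Both groups carry the diet and the supplement, so the contrast is between depots and not between diets; libraries from mice without EPA and from visceral fat were not analysed here. The labels do not say whether the libraries of both depots came from the same mice, nor whether a library pools animals, so p-values measure only the spread between these libraries.

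A miRNA is cut from a hairpin as a duplex of a 5p and a 3p arm, of which the guide strand is kept in an Argonaute protein and the passenger strand is usually degraded. The guide recognises target transcripts mainly through its seed, bases 2 to 8. In the miR-26 family the 5p arm is the guide, and the hairpins lie in introns of Ctdsp genes, which encode small phosphatases that act on the C-terminal domain of RNA polymerase II and on the retinoblastoma protein. In human adipocytes miR-26 has been reported to favour a thermogenic programme through ADAM17, whereas in mice raised miR-26 has been reported to restrain the formation of fat cells from their progenitors.

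The mature arms are shown with bases 2 to 8 in capitals, because both guides share them. The sequences are RefSeq's on GRCm38.p6, written 5′ to 3′.
miR-26a-5p: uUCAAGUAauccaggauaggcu
miR-26b-5p: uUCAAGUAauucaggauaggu
miR-26b-3p: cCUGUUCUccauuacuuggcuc

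Counted from the 5′ end of miR-26a-5p, the guides differ by C11U and C21U, and miR-26a-5p is 22 bases long against 21 for miR-26b-5p. Among 1679 mouse mature names in the RefSeq table, only these 2 carried the seed UCAAGUA. A full-length read tells them apart, but how reads with mismatches were assigned is not given in the sources used here, so some reads of one could have been counted for the other. The GC content was 40.9% for miR-26a-5p, 33.3% for miR-26b-5p and 50.0% for miR-26b-3p.

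The family has 3 hairpins, shown with both mature arms in capitals, because miR-26a-5p is made from a pair of loci and miR-26b-5p from a single locus.
Mir26a-1: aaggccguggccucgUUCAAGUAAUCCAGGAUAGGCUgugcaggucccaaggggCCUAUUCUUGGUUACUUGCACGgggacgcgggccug
Mir26a-2: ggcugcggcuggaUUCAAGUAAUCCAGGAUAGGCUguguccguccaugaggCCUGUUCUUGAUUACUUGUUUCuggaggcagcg
Mir26b: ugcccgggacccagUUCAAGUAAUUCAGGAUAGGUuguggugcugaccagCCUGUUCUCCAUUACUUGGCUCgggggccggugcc

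Mir26a-1 lies at chr9:119031796-119031885, in intron 5 of Ctdspl. Mir26a-2 lies at chr10:126995530-126995613, in intron 5 of Ctdsp2. Mir26b lies at chr1:74394310-74394394, in intron 4 of Ctdsp1. All 3 are on the plus strand, as are their hosts, and introns are numbered in the principal transcript of GENCODE M21 on GRCm38. The mature miR-26a-5p is identical from both loci, so its value cannot be divided between Ctdspl and Ctdsp2. The opposite arms, miR-26a-1-3p and miR-26a-2-3p, would separate the loci, but both sat at the table's lowest value in each of the 6 libraries.

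Of the host transcripts, Ctdsp2 carries the reverse complement of the seed, TACTTGA, in its 3′ untranslated region; the site is shown in capitals because in zebrafish miR-26b has been reported to repress ctdsp2, its host there.
Ctdsp2 site: agtgttgctctTACTTGAtttgccaaatgc

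It starts at base 1080 of an untranslated region of 3489 bases. TACTTGA was searched on the transcript strand, in the longest 3′ untranslated region of each gene. It was found in none of the 1701 bases of Ctdsp1 and in none of the 3349 bases of Ctdspl. Over 21020 genes, 9.67% held it, and among regions at least as long as that of Ctdsp2 the first 3489 bases held it in 24.6%. Host transcripts were not measured in these libraries.

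The deposited values are log2 abundances per arm, with a floor of 3.32 (10 on the linear scale) and a maximum of 18.67 in every library; 235 to 273 arms lay above the floor. The libraries have nearly equal distributions, so a value says where an arm stands relative to the rest of its library, and its sequencing depth is not known. Of the 1251 arms, 269 were abundant enough to test, all 3 miR-26 members among them. Marker levels followed the depot labels: the summed linear level of 4 brown fat miRNAs was 459017 to 473472 in BF-EPA and 40651 to 50042 in SUB-EPA, and that of 2 HOX-cluster miRNAs of posterior depots was 11632 to 15736 in BF-EPA and 94893 to 124261 in SUB-EPA. Most of the first sum in BF-EPA was miR-378a-3p, at the maximum of 18.67 in all 3 libraries. The rest of that list, miR-193b-3p, miR-365-3p and miR-455-3p, was also called higher in brown fat. Most of the HOX-cluster sum was miR-10b-5p in both depots. Skeletal muscle markers varied widely within both depots, at 1264 to 151209 in BF-EPA and 1697 to 123084 in SUB-EPA, mostly through miR-133a-3p, which was highest in BF-EPA 4 (17.20) and SUB-EPA 3 (16.90). The muscle miRNA miR-1a-3p was at the floor throughout. The epithelial miR-205-5p was at the floor in all BF-EPA libraries and stood at 15.02, 7.35 and 5.74 in SUB-EPA 1, 3 and 8. Other epithelial markers did not separate the depots. MiR-203-3p stood at 8.29, 7.80 and 8.56 in BF-EPA 3, 4 and 5, against 12.25, 7.28 and 8.56 in SUB-EPA 1, 3 and 8. MiR-200a-3p, miR-200b-3p and miR-200c-3p were above the floor in SUB-EPA 1 and at it in SUB-EPA 3 and 8. In brown fat only miR-200b-3p in BF-EPA 5 (4.91) was above it. The liver miR-122-5p stood 38.5 to 996 linear units above the floor in BF-EPA and at the floor in SUB-EPA.

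Both miR-26 guides were lower in brown than in subcutaneous fat, and the passenger arm of miR-26b was not called different. MiR-26a-5p was among the leading miRNAs of subcutaneous fat and 5.26-fold lower in brown fat. MiR-26b-5p, present at a far lower level, was 9.53-fold lower in brown fat. MiR-26b-3p was near the bottom of the tested range in both depots. The ratio of miR-26b-5p to miR-26b-3p was 11.7-fold lower in brown fat, and that of miR-26a-5p to miR-26b-5p was 1.81-fold higher. All of these sizes move strongly with the GC content of the miRNAs, as given further on.

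MiR-26a-5p, the guide that has been linked to repression of the methyltransferase gene Ezh2 and to muscle differentiation, stood at 14.41, 14.88 and 15.02 on the log2 scale in BF-EPA 3, 4 and 5, against 17.58, 16.72 and 17.20 in SUB-EPA 1, 3 and 8. Every brown library lay below every subcutaneous library. It ranked 21, 18 and 17 among all arms of the BF-EPA libraries and 3, 6 and 4 in the SUB-EPA libraries. As a share of the library's summed linear values it held 1.18% ± 0.249 in BF-EPA and 6.30% ± 1.84 in SUB-EPA (SD, n = 3 each). The mean was 14.77 ± 0.32 in BF-EPA and 17.17 ± 0.43 in SUB-EPA (SD, n = 3 each), a log2 difference of -2.39 ± 0.27 (SE; limma, adjusted p = 0.00037).

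MiR-26b-5p, the guide made within Ctdsp1, stood at 9.39, 9.23 and 9.42 in BF-EPA 3, 4 and 5, against 12.81, 12.25 and 12.74 in SUB-EPA 1, 3 and 8. The brown libraries lay within 0.18 of each other and far below the lowest subcutaneous library. Its rank was 105, 108 and 104 in BF-EPA and 41, 49 and 42 in SUB-EPA. The mean was 9.35 ± 0.10 in BF-EPA and 12.60 ± 0.30 in SUB-EPA (SD, n = 3 each), a log2 difference of -3.25 ± 0.20 (SE; limma, adjusted p = 4.1e-05).

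MiR-26b-3p, the passenger arm of the same hairpin, stood at 6.52, 5.60 and 5.76 in BF-EPA 3, 4 and 5, against 5.72, 5.76 and 5.53 in SUB-EPA 1, 3 and 8. The depots overlapped, with BF-EPA 3 alone above all others. The log2 difference was 0.29 ± 0.39 (SE; limma, adjusted p = 0.528), with a 95% interval of -0.66 to 1.25 that holds zero; without BF-EPA 3 the difference was 0.01. The ranks were 195, 222 and 221 in BF-EPA and 220, 219 and 230 in SUB-EPA. At values so near the floor, differences are compressed.

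**Figure D1:**
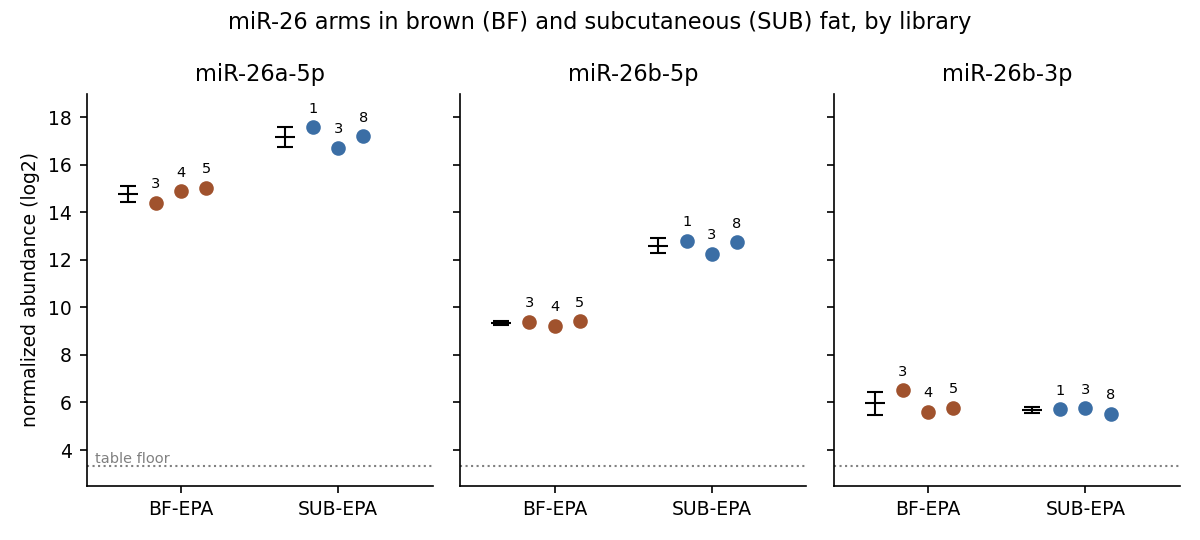
Normalized abundance (log2, vertical axis) of the 3 miR-26 arms in each BF-EPA (left, brown points) and SUB-EPA (right, blue points) library, with the library number above each point, mean ± SD (n = 3) as bars and the floor of the table as a dotted line. Both 5p arms are lower in all 3 BF-EPA libraries, at 14.41 to 15.02 and 9.23 to 9.42, while miR-26b-3p overlaps between the depots.

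Of the 3 members, 2 were called lower in brown fat and none higher at an adjusted p of 0.05, in a table where 69.1% of tested miRNAs were called in either direction and 35.7% were called lower. The same 2 did not overlap between the depots, as was true of 74% of tested miRNAs. A call or a lack of overlap was thus common in this contrast. By size, 25 of the 269 tested miRNAs had a difference at or below that of miR-26b-5p, and 46 at or below that of miR-26a-5p. The median of all tested miRNAs was -0.45, so the guides lay below the bulk of the table. In a bulk tissue, fewer cells that express a miRNA and less of it per cell cannot be told apart.

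**Figure D2:**
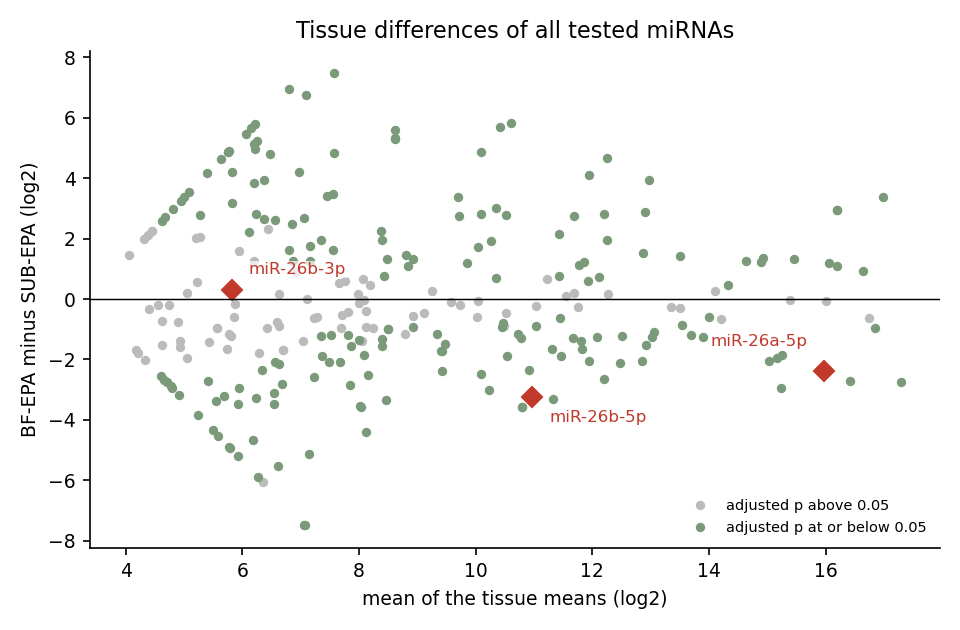
Log2 difference between BF-EPA and SUB-EPA (vertical axis) against the mean of the tissue means (log2, horizontal axis) for the 269 tested miRNAs, coloured by whether the limma adjusted p was at or below 0.05, with the miR-26 arms as red diamonds. MiR-26a-5p (-2.39) lies at the abundant end, miR-26b-5p (-3.25) in the middle and miR-26b-3p (0.29) near the floor.

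The ratio of miR-26a-5p to miR-26b-5p compares the deposited values of the guides within a library, where a factor common to the library cancels. A step that sets values by rank would not cancel, and at 64.0% of the 100 highest ranks all 6 libraries share the same value. The ratios and shares given here are therefore of deposited values and not of reads. MiR-26a-5p exceeded miR-26b-5p in every library. The ratio was 32.4, 50.2 and 48.7 in BF-EPA 3, 4 and 5, against 27.3, 22.0 and 22.1 in SUB-EPA 1, 3 and 8. All 3 brown libraries lay above all 3 subcutaneous libraries, BF-EPA 3 closest to them. On the log2 scale the mean was 5.42 ± 0.35 in BF-EPA and 4.57 ± 0.18 in SUB-EPA (SD, n = 3 each), a difference of 0.86. The exact two-sided permutation test over the 6 libraries gave p = 0.1, the smallest it allows. Limma on the ratio of every tested miRNA to miR-26b-5p gave 0.86 ± 0.24 (SE, adjusted p = 0.011), where 79.9% of the 268 ratios were called. Without BF-EPA 4 and SUB-EPA 3, the libraries highest in miR-133a-3p, it was 0.69 with a limma adjusted p of 0.085. With the GC trend of each library removed the sign turned, to -0.13 (limma adjusted p = 0.651).

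Set as a share, miR-26b-5p made up 2.96%, 1.92% and 1.98% of the summed guides in BF-EPA 3, 4 and 5, against 3.53%, 4.33% and 4.33% in SUB-EPA 1, 3 and 8. Nearly all of the measured miRNA with the seed UCAAGUA was miR-26a-5p in both depots. Together the guides held 0.931%, 1.28% and 1.41% of the BF-EPA libraries' summed linear values, against 8.45%, 4.68% and 6.54% of those of the SUB-EPA libraries. The log2 of this total differed by -2.42, 5.36-fold lower in brown fat, with the groups apart (exact two-sided permutation p = 0.1, the smallest possible with 3 libraries each).

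The ratio of miR-26b-5p to miR-26b-3p compares both arms of one hairpin, which are made in equal numbers when the hairpin is cut. It was 7.34, 12.4 and 12.6 in BF-EPA 3, 4 and 5, against 136, 90.4 and 147 in SUB-EPA 1, 3 and 8. The guide exceeded the passenger arm in every library, and the depots were far apart. The log2 ratio averaged 3.39 ± 0.44 in BF-EPA and 6.93 ± 0.38 in SUB-EPA (SD, n = 3 each), a difference of -3.54 (exact two-sided permutation p = 0.1, again the smallest possible). Limma on ratios to miR-26b-5p gave an SE of 0.51 and an adjusted p of 0.00028.

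**Figure D3:**
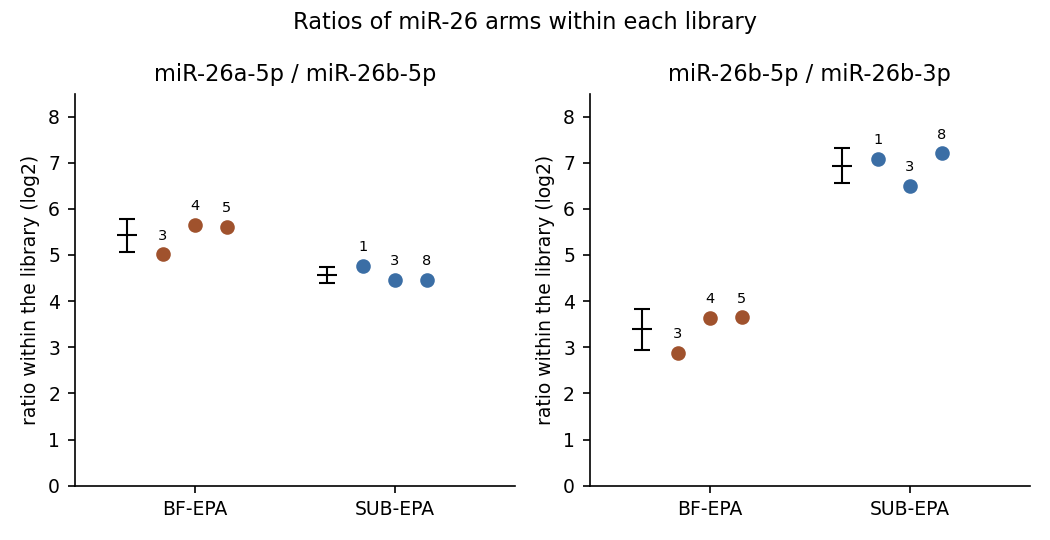
Ratio of miR-26a-5p to miR-26b-5p (left) and of miR-26b-5p to miR-26b-3p (right) within each library (log2, vertical axis), BF-EPA left of SUB-EPA, with library numbers above the points and mean ± SD (n = 3) as bars. The first ratio is higher in brown fat, 5.42 against 4.57, and turns sign to a difference of -0.13 with the GC trend removed; the second is lower, 3.39 against 6.93.

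A shift in arm ratio between the depots was common. Of 54 hairpins with both arms tested, limma on the 5p to 3p ratio called 28, or 51.9%, of which 16 were lower and 12 higher in brown fat; this fit was chosen after the data were seen. The median absolute difference was 1.5, and miR-26b (-3.54 ± 0.42 SE, adjusted p = 0.0003) ranked 7 by size. Among the 26 hairpins with no value at the floor it ranked 3. The pattern of miR-26b, a 5p arm called lower with a 3p arm not called, was shared by 15 of the 54 hairpins.

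**Figure D4:**
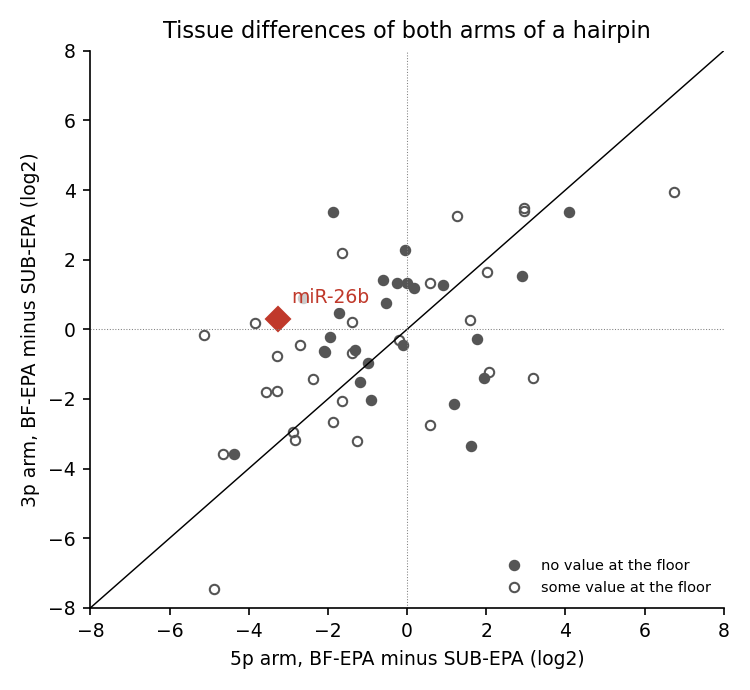
Log2 difference between BF-EPA and SUB-EPA of the 3p arm (vertical axis) against that of the 5p arm (horizontal axis) for 54 hairpins with both arms tested; open circles have at least 1 library at the floor and the diagonal marks equal differences. MiR-26b (red diamond) lies left of the diagonal, at -3.25 for its 5p arm and 0.29 for its 3p arm.

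The tissue difference rose with the GC content of a miRNA, and the guides are poor in GC. Across the 229 tested miRNAs with a RefSeq mature sequence, the difference rose by 1.30 on the log2 scale per 10 points of GC. Pearson's r was 0.52 across miRNAs, which share the 6 libraries and are not independent replicates. The trend is a straight line that runs up to 100% GC (miR-5126, 4.87). How far the GC-richest arms set it, and with it the corrected sizes below, was not tested. The slope of abundance on GC was 0.17 to 0.26 per 10 points in BF-EPA and -1.22 to -0.91 in SUB-EPA, so all libraries of a depot fell on one side. Only 2.62% of these miRNAs had a lower GC content than miR-26b-5p, and 8.30% a lower one than miR-26a-5p.

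With each library's GC trend removed, miR-26a-5p had a difference of -1.0 ± 0.22 (SE, limma adjusted p = 0.007), 2.0-fold lower in brown fat. MiR-26b-5p had -0.87 ± 0.14 (SE, limma adjusted p = 0.0021), 1.83-fold lower. Both calls and directions stayed, at much smaller sizes. The difference of miR-26b-3p was 0.50 ± 0.42 (SE, limma adjusted p = 0.317). The difference of the arm ratio fell to -1.37 (limma on ratios to miR-26b-5p, adjusted p = 0.027). In the limma fit over arm ratios its adjusted p was 0.030. There it ranked 22 by size among the 41 hairpins with sequences for both arms, of which 21 were called. Because the GC slope follows the depot in all 6 libraries, a technical effect of GC and a depot difference in AU-rich miRNAs cannot be told apart.

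**Figure D5:**
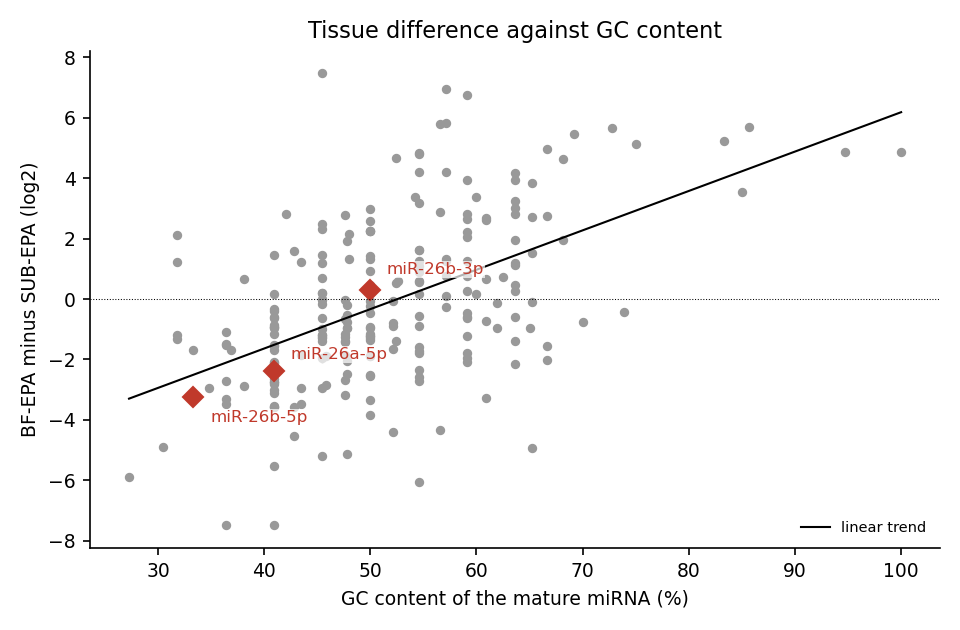
Log2 difference between BF-EPA and SUB-EPA (vertical axis) against the GC content of the mature miRNA in percent (horizontal axis) for 229 tested miRNAs, with their linear trend (black line) and the miR-26 arms as red diamonds. Both guides sit at the low-GC end and near the trend line, at 40.9% and 33.3% GC, and their differences are -1.0 and -0.87 once the trend is removed in each library.

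Marker miRNAs of other cell types also differed between the depots, here without the GC correction. The cells themselves were not counted. Summed linear levels of 5 stromal markers were 25527 to 30804 in BF-EPA and 90590 to 113683 in SUB-EPA. Of these, miR-214-3p was not called (-0.46, limma adjusted p = 0.059). The endothelial miR-126-3p stood at 10.76 to 11.18 in BF-EPA and 12.89 to 13.09 in SUB-EPA. The myeloid miR-223-3p stood 0 to 20.1 linear units above the floor in BF-EPA and 433 to 912 in SUB-EPA. The leukocyte list came down to miR-142-5p, at 50.5 to 126 linear units above the floor in BF-EPA and 299 to 506 in SUB-EPA, since miR-142-3p was at the floor throughout. The red cell list came down to miR-451a, at 283 to 570 in BF-EPA and 884 to 1374 in SUB-EPA, since miR-144-3p was at the floor throughout. Other miRNAs of blood cells, outside these lists, went the other way: miR-486-5p, of red cells and muscle and with the same values as miR-3107-5p, averaged 17.68 in BF-EPA and 14.73 in SUB-EPA (limma adjusted p = 0.00012), and the lymphocyte miR-150-5p averaged 15.26 in BF-EPA and 13.99 in SUB-EPA (limma adjusted p = 0.0016). The part of these cell types in the miR-26 differences was not tested. Within subcutaneous fat, SUB-EPA 3 had the lowest level of both guides and the most miR-133a-3p. SUB-EPA 1 had the highest level of both and the most miR-205-5p. Brown fat did not repeat this for miR-26a-5p, which was lowest in BF-EPA 3 (14.41), the library with the least miR-133a-3p (10.32). BF-EPA 4, with the most miR-133a-3p, had the middle miR-26a-5p level (14.88) and the lowest miR-26b-5p level (9.23). Without SUB-EPA 3 the difference was -2.62 for miR-26a-5p and -3.43 for miR-26b-5p; without SUB-EPA 1 it was -2.19 and -3.15. Neither library set the call.

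The 5 tested miRNAs closest in pattern to each arm were found by the root-mean-square distance of log2 values over the 6 libraries after each miRNA's mean was subtracted. This distance includes the depot difference, so a close miRNA has a similar difference through the way it was chosen. The differences below describe these miRNAs and are no separate evidence. For miR-26a-5p these were miR-99a-5p, miR-221-3p, miR-497-5p, miR-382-5p and miR-10a-5p, at distances of 0.27 to 0.31. Among them miR-497-5p had a log2 difference of -2.33 and miR-10a-5p, of a HOX cluster, one of -1.86 (-0.80 with the GC trend removed), and miR-382-5p was at the floor in all BF-EPA libraries. For miR-26b-5p they were miR-29b-3p, miR-10b-5p, miR-193a-3p, and miR-199a-3p with miR-199b-3p, which hold identical values, at 0.22 to 0.31. MiR-10b-5p, also of a HOX cluster, averaged 13.76 in BF-EPA and 16.71 in SUB-EPA, a difference of -2.95, or -1.89 with the GC trend removed. MiR-29b-3p, a repressor of collagen genes, was at the floor in all BF-EPA libraries, and with the GC trend removed it was no longer called (limma adjusted p = 0.235). The guides were not each other's nearest: miR-26a-5p came 19 in the order around miR-26b-5p, at 0.49.

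For miR-26b-3p the closest were miR-30e-5p, miR-140-3p, miR-434-3p, miR-361-5p and miR-652-3p, at 0.22 to 0.31. Apart from miR-652-3p (0.76, limma adjusted p = 0.023), none was called, which largely follows from choosing miRNAs close to an uncalled arm. The call of miR-652-3p was lost without BF-EPA 3 (0.068), BF-EPA 5 (0.063) or SUB-EPA 8 (0.061), these being limma adjusted p-values. With the GC trend removed its log2 difference was 0.03 (limma adjusted p = 0.891), and miR-140-3p turned to -0.63 (limma adjusted p = 0.015). MiR-30e-5p and miR-434-3p were called higher with the GC trend removed, at 1.57 and 0.99, and after median-of-ratios scaling, at 0.59 and 0.61.

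MiR-26 has been placed among miRNAs that favour brown or beige fat cells, so the other members of such a list were counted. Of 14 tested, 10 were higher in brown fat, 3 were lower and 1 was not called, with a median difference of 2.44, beside 90 higher and 96 lower and a median of -0.45 over all 269 tested miRNAs. The guides differed in the direction opposite to most of the list. That list holds the 4 miRNAs used above as brown fat markers, so a majority higher in brown fat was partly set in advance. It also counts both arms of miR-193b and of miR-378a, which are not independent entries. MiR-193b-5p stood at 10.46 ± 0.40 in BF-EPA and 3.73 ± 0.70 in SUB-EPA (SD, n = 3 each), where 2 libraries were at the floor. MiR-129-5p stood at 10.27 ± 0.45 in BF-EPA and was at the floor in SUB-EPA. Of the lower members, miR-196a-5p was at the floor in BF-EPA and stood at 10.81 ± 0.11 in SUB-EPA (SD, n = 3), miR-193a-3p had a log2 difference of -3.34 and miR-30b-5p one of -1.16.

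Of 13 tested miRNAs reported to promote white fat cell formation, 6 were lower in brown fat, 4 were higher and 3 were not called, with a median of -1.38. Only 10 of the 13, and 10 of the 14 of the brown fat list, had a sequence for the GC correction. With the GC trend removed, 5 of these 10 white fat miRNAs were lower, 2 were higher and 3 were not called, with a median of -0.82. Of the 10 from the brown fat list, 7 were then higher, 2 were lower and 1 was not called, with a median of 2.79. MiR-146b-5p had a log2 difference of -3.53 ± 0.40 (SE, limma adjusted p = 0.0004), or -2.13 with the GC trend removed. The difference of miR-21a-5p, a growth-linked miRNA, was -3.29 ± 0.45, or -1.31 with the GC trend removed (limma adjusted p = 0.030). That of miR-103-3p, which lies in introns of Pank genes and is tied to insulin signalling, was -2.07 ± 0.17, or -1.57 with the GC trend removed. Of these 13, 2 had a difference at or below that of miR-26b-5p.

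MiR-26a is also among the miRNAs that the transcription factor Myc represses in lymphoma cells. Of 23 other tested members of that list, 16 were lower in brown fat, 3 were higher and 4 were not called, with a median of -1.16. With the GC trend removed, of the 19 with a sequence 5 were lower, 7 were higher and 7 were not called, with a median of -0.45, so the balance of calls depended on the GC correction. MiR-195a-5p, of the miR-15 and miR-16 seed family, had a log2 difference of -3.56 ± 0.31 (SE, limma adjusted p = 0.00012), or -2.42 with the GC trend removed. MiR-29c-3p had -3.46 ± 0.69, with 1 BF-EPA library at the floor, and -1.48 with the GC trend removed, no longer called (limma adjusted p = 0.109). MiR-146a-5p, an inhibitor of inflammatory signalling, had -3.10 ± 0.94 (SE, limma adjusted p = 0.024) and lost its call without BF-EPA 3, BF-EPA 4 (-2.27), SUB-EPA 1 or SUB-EPA 8 (-2.45), with the GC trend removed (-1.71, limma adjusted p = 0.135) and with the floor subtracted (limma adjusted p = 0.072). Of these 23, 7 had a difference at or below that of miR-26a-5p and 2 at or below that of miR-26b-5p.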

How the data were processed

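Small RNA was sequenced from 3 brown and 3 subcutaneous fat libraries. Per the series' design text, the authors scaled counts of unique reads to total usable reads, added 40 counts and mapped about 13.8 M reads per sample to mm10; neither aligner nor miRNA annotation is named there. The deposited values are log2 abundances. At 64.0% of the 100 highest ranks the 6 libraries share the same value (tolerance 1e-06), and no counts are given, so the depth of each library and counting intervals are not known.

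Arms whose mean over the libraries, floor subtracted, was at least 24.0 linear units were tested on the deposited log2 scale. The tool was limma (3.58.1, R 4.3.3) with its trend option, and p-values were adjusted over all 269 by Benjamini and Hochberg, at 0.05; differences are BF-EPA minus SUB-EPA. Ratios within a library were tested with exact permutations and with the same limma model over all miRNAs. The limma fit was also run on simulated independent normal values. These had no floor and no GC trend, so that run does not cover such features of the data. RefSeq mature sequences (GRCm38.p6) gave GC content for 229 tested arms (85.1%). Python 3.11.15 was used. The members, lists and tests were chosen with earlier results of these data known. The rule for named miRNAs was the members, other arms of their hairpins, up to 3 listed miRNAs with the largest differences per list and the 5 closest in pattern to each member; miR-193a-3p and miR-30b-5p of the brown fat list and the marker and blood cell miRNAs (miR-486-5p and miR-150-5p after their values were seen) were named beyond it.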

Additional observations from a re-analysis of the deposited data

How the results depend on the processing

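The calls and directions of miR-26a-5p (-2.68 to -1.0) and miR-26b-5p (-3.45 to -0.87) held under all 18 alternatives. The miR-26b-5p to miR-26b-3p ratio kept its call and direction under its own 18 (-3.88 to -1.37, limma adjusted p up to 0.027). Those lack the stricter filter and include the fit over arm ratios. Scaling a library cannot change a ratio within it, so the scaling alternatives do not test either ratio. MiR-26b-3p was called under none of its 17. The smallest sizes came with the GC trend removed, where the miR-26a-5p to miR-26b-5p ratio turned to -0.13; leaving out BF-EPA 4 and SUB-EPA 3 (an alternative chosen after seeing the data) its call was lost, at 0.69. Leaving out each library in turn kept that ratio between 0.75 and 1.06, with limma adjusted p of 0.0058 to 0.048. Median-of-ratios scaling moved the median of all tested miRNAs to -0.04 and gave 103 higher and 82 lower; miR-26a-5p was then -1.98 and miR-26b-5p -2.83. Calls numbered 127 to 189 over the alternatives, the lowest with the filter 10 times as strict, under which miR-26b-3p was not tested. Of 24 other named miRNAs, the difference turned sign for miR-140-3p with the GC trend removed (-0.63) and for miR-361-5p, uncalled throughout, without both libraries numbered 3 (-0.22), with medians set equal (-0.0078) and in single left-out libraries (lowest -0.18, highest 0.29 over all 6 left out). No paired analysis was possible because the depots share only the number 3. The sources give an average of mapped reads but not the depth of each library, so the counting precision of values near the floor cannot be given.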
